A study of Mus musculus with 15 samples.

Results

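Transcripts of 10 circadian clock genes were measured in mouse pancreas after a single injection of cerulein: the repressors Ciart, Bhlhe40, Bhlhe41, Per1, Per2, Per3 and Cry1, the nuclear receptors Nr1d1 and Nr1d2, and the output gene Dbp. The genes were chosen by name, with earlier results of these data known. Every array probe whose RefSeq accession belongs to one of these genes was taken. They were 10 of the 20660 genes with a named probe and were read by 12 of 55681 probes, and all 10 were among the 17338 genes tested. Bhlhe41 and Dbp had 2 probes each and the others 1. The second Bhlhe41 probe did not clear the background threshold on any array (0 of 15), so it was left untested.

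RNA came from the whole pancreas of male C57BL/6J mice, with 1 array per animal. The mice had fasted for 18 h, were injected intraperitoneally with saline or with 50 µg/kg cerulein, a cholecystokinin analogue used to elicit acute pancreatitis, and were killed 3 h later. The 4 groups were wild type mice given saline (WT saline, n = 4) or cerulein (WT cerulein, n = 4), and mice labelled transgenic (TG) given saline (TG saline, n = 3) or cerulein (TG cerulein, n = 4). The saline mice carry a time label of 0 h, although the protocol gives them the same 3 h between injection and death. The series title ties the transgene to betacellulin (Btc), an EGFR and ERBB4 ligand. The promoter that drives it, the age of the mice and the hour of day at which they were killed are not given in the sources used here. Whether the groups were taken at the same hour was not tested.

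In the core clock loop, the activators CLOCK and BMAL1 (Arntl) bind E-box sequences and switch on genes that encode their own repressors, among them the PER and CRY proteins, CIART and the paired repressors BHLHE40 and BHLHE41. NR1D1 and NR1D2, also called REV-ERB alpha and beta, close a second loop by repressing Arntl. DBP is a transcription factor that carries the rhythm to output genes through D-box sequences, where NFIL3 acts as its opponent. Peripheral organs such as the pancreas run this clock themselves, and feeding, fasting and glucocorticoids can shift it.

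The RefSeq promoter table (build GRCm38.p6) held a window for 8 of the 10 genes, and the 4 windows printed here belong to members called as changed below. Each line gives the 250 bases before the annotated start, 5′ to 3′ on the gene's strand, and capitals mark matches to the motifs searched on both strands: CACGTG (E-box), CACGTT (an E-box variant), TTANGTAA (D-box), TNGGTCA (the core bound by REV-ERB receptors) and TGACGTCA (the cAMP response element). Ciart lies at chr3:95882229-95882478 (minus strand), Cry1 at chr10:85185055-85185304 (minus), Nr1d1 at chr11:98775378-98775627 (minus) and Dbp at chr7:45704997-45705246 (plus).
Ciart: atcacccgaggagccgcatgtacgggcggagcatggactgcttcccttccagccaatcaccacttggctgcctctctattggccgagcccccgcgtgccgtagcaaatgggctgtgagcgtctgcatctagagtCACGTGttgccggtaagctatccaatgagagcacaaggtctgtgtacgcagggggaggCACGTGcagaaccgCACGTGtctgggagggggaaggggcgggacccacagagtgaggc
Cry1: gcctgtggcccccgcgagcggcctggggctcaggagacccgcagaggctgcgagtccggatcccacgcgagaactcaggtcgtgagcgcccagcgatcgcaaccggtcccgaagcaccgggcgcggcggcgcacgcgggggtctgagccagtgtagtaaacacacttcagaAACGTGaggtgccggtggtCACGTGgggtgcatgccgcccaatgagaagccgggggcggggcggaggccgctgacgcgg
Nr1d1: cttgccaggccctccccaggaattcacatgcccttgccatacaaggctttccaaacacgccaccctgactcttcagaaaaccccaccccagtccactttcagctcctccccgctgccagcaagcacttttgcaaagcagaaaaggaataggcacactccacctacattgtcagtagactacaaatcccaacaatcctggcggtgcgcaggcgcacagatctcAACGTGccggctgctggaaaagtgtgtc
Dbp: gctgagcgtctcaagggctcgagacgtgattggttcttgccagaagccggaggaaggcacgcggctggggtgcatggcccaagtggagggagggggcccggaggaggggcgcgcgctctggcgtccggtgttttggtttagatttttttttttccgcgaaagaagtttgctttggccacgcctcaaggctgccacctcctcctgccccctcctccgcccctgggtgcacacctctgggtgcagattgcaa

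The Ciart window held 3 CACGTG matches, 116, 58 and 44 bases before the start. Of 32851 windows of the same length in the table, 6.02% held a CACGTG, and 20 (0.0609%) held 3 or more. Cry1 had 1 CACGTG at 60 bases and 1 CACGTT at 79 bases, read on the opposite strand. Nr1d1 had a CACGTT at 28 bases, also on the opposite strand, and 3.85% of all windows held that motif. Dbp had no match in its window, and so did Nr1d2 and the second annotated start of Per1. The first Per1 start had 1 CACGTG at 166 bases and Bhlhe41 had 1 at 153 bases. Per3 had 2 TTANGTAA matches, at 205 and 158 bases, and 1 TNGGTCA at 118 bases, motifs held by 2.06% and 9.19% of windows. TGACGTCA was found in 0 of the 9 member windows and in 1.55% of all windows. No matches overlapped in these windows.

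**Figure D1:**
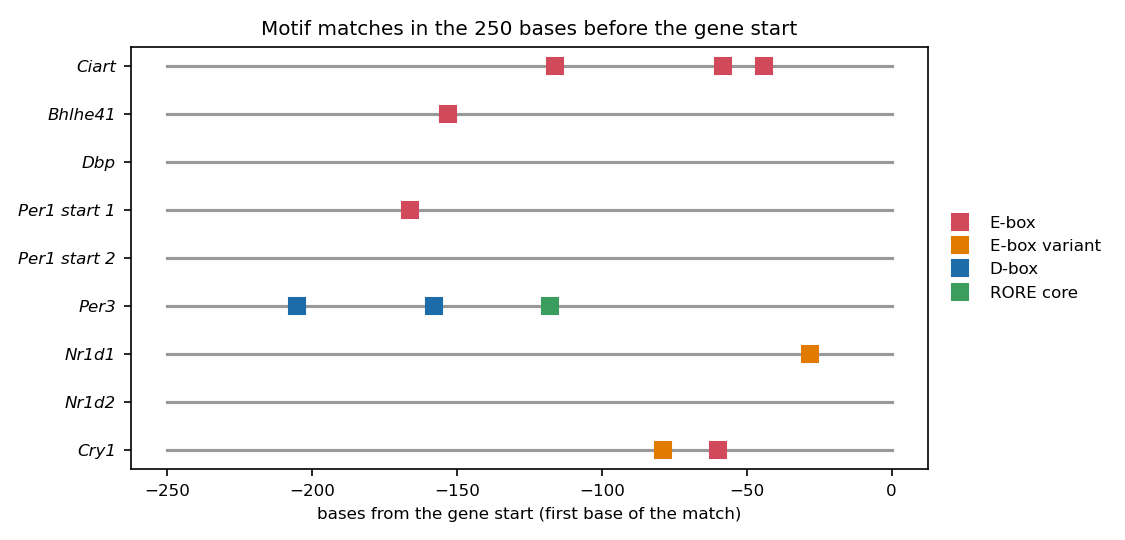
Motif matches in the 9 promoter windows of 8 members, by distance in bases before the annotated start (x axis), 1 line per window; colours stand for motifs. The Ciart window holds 3 E-box matches, at 116, 58 and 44 bases.

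Levels below are log2 signal minus the array's 75th percentile, so a level of 0 equals that percentile, and levels of different probes are not compared with each other. A gene was called where its adjusted p was below 0.05 (limma, Benjamini-Hochberg over all 17338 genes). The share of probes well above background was 54.9% to 65.3% on WT saline arrays, 60.1% to 68.2% on TG saline, 65.1% to 76% on WT cerulein and 63.8% to 74.7% on TG cerulein arrays, and the 75th percentile of signal was 152 to 237, 179 to 283, 201 to 410 and 265 to 529 intensity units. The arrays lie on 3 slides, and slide 2 holds cerulein arrays only (WT replicates 11 and 12, TG replicate 16). The cerulein responses of the 10 genes are therefore also given with slide as a block and within slides 1 and 3, where each side has 1 to 3 arrays. The betacellulin probe does not check the genotype labels: Btc did not pass the test between genotypes after saline (0.55 ± 0.48 SE, adjusted p = 1) or cerulein (0.49 ± 0.45, adjusted p = 0.837) in limma's test, and whether the probe reads the transgene is not known.

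Marker sums in this paragraph are the log2 of the summed linear levels of a list, so its brightest markers weigh most. All 5 acinar markers (Cpa1, Cela2a, Pnlip, Ctrb1, Ptf1a) were measured. Their sum was 12.67 to 13.44 in WT saline, 12.57 to 13.11 in TG saline, 11.99 to 13.09 in WT cerulein and 11.64 to 12.6 in TG cerulein, with 1 called higher in each genotype. Lymphocyte markers (5 of 5 measured) summed to 5.07 to 5.41 after saline and 3.69 to 4.86 after cerulein over both genotypes, with 0 of 5 called, and endothelial markers (4 of 4) to 6.51 to 7.44 and 5.17 to 6.98. Macrophage markers (3 of 4, without Cd68) summed to 5.24 to 5.58 and 4.72 to 5.22, with 1 called higher in each genotype. Neutrophil markers (5 of 5) summed to 6.65 to 7.6 and 6.26 to 7.55, with 3 called higher in WT and 1 in TG mice. Over all genes 5.64% were called higher in WT and 4.78% in TG mice. Endothelial, duct, islet, adipocyte and fibroblast lists had 0 members called between cerulein and saline. Over both genotypes, sums after saline and cerulein were 0.8 to 1.89 and 1.14 to 2.76 (duct), 9.26 to 10.45 and 8.71 to 10.36 (islet), 0.67 to 2.92 and 0.04 to 1.42 (adipocyte) and 5.53 to 7.16 and 5.2 to 7.55 (fibroblast). Fibroblast sums did not overlap between the genotypes. They were 5.53 to 6.23 (WT saline), 6.32 to 7.16 (TG saline), 5.2 to 6.31 (WT cerulein) and 6.65 to 7.55 (TG cerulein). Duct sums did not overlap after saline (0.8 to 1.38 in WT, 1.42 to 1.89 in TG mice), but did after cerulein. Marker calls between the genotypes were not counted. The part of cell composition in the results was not tested, and in bulk tissue fewer cells of a type and less RNA per cell cannot be told apart.

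In wild type mice 5 of the 10 genes were called between cerulein and saline. Ciart, Bhlhe40 and Cry1 were called higher and Dbp and Nr1d1 lower, while Bhlhe41, Nr1d2 and the 3 Per genes did not pass the test. With slide as a block the calls of Dbp and Nr1d1 were lost and Per1 was called. Of the 5, only Ciart and Bhlhe40 kept their calls both with the block and without each array in turn. Over all genes, 14% were called, 5.64% higher and 8.35% lower. Genes called higher were thus 40.3% of the calls, but 63.9% with slide as a block and 71% without slide 2. Cerulein and saline arrays did not overlap for 6 of the 10, the called genes and Per3, against 17.4% of all genes, and the median difference of the 10 was 0.37 against -0.06 for all genes. In transgenic mice Ciart, Bhlhe40 and Cry1 were again called higher, Nr1d1 lower, and 6 genes did not pass. Only Bhlhe40 kept its transgenic call without each array in turn. There 8.2% of all genes were called, 4.78% higher and 3.41% lower, the groups did not overlap for 4 of the 10 against 21.6% of all genes, and the medians were 0.04 and -0.06. The comparisons in the 2 genotypes share no arrays. The 10 genes were chosen with earlier results of these data known, so their counts beside all genes are no independent comparison.

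**Figure D2:**
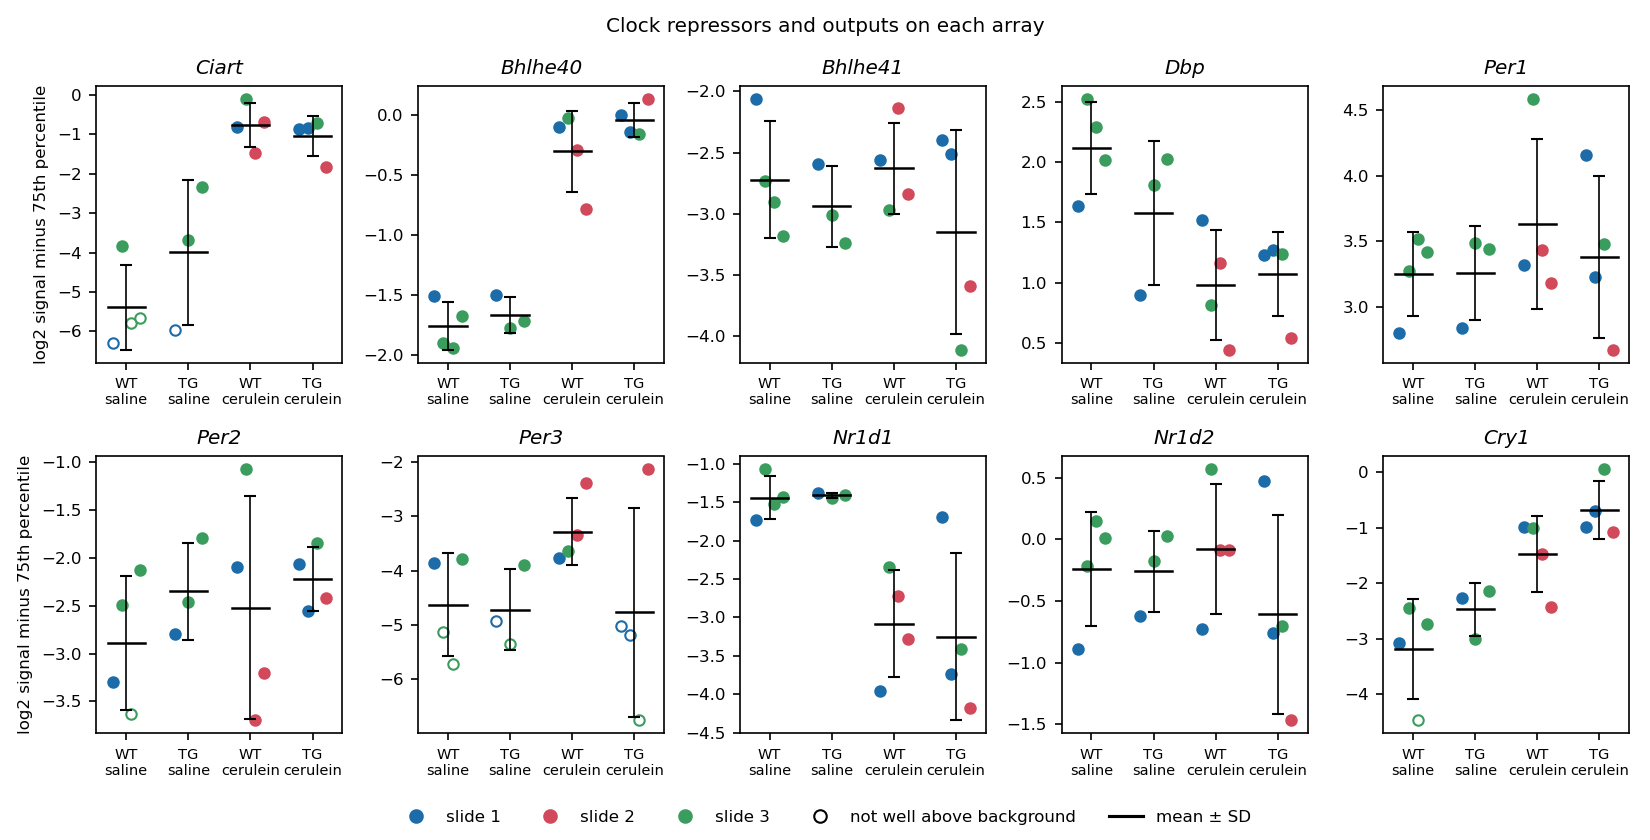
Level of each of the 10 genes (log2 signal minus the array's 75th percentile, y axis) on each of the 15 arrays by group, coloured by slide; open points are not well above background and lines are the mean ± SD. For Ciart all 8 cerulein arrays lie between -1.82 and -0.09 and all 7 saline arrays between -6.3 and -2.33.

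Ciart, which encodes a protein that binds BMAL1 and represses CLOCK-BMAL1 transcription, rose in both genotypes. Its levels on the WT saline arrays were -6.3, -3.83, -5.78 and -5.66 (replicates 5 to 8), against -0.8, -0.09, -1.47 and -0.69 on the WT cerulein arrays (replicates 9 to 12). On the TG saline arrays they were -5.97, -3.69 and -2.33 (replicates 2 to 4), against -0.85, -0.83, -0.71 and -1.82 on the TG cerulein arrays (replicates 13 to 16). Every cerulein array lay above every saline array, and the saline arrays were far more spread out than the cerulein arrays. The probe was well above background on 1 of 4 WT saline and 2 of 3 TG saline arrays and on all 8 cerulein arrays.

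In wild type mice Ciart rose by 4.63 ± 0.66 (SE, n = 4 and 4) on the log2 scale, a fitted 24.8-fold against saline arrays that mostly did not clear the background (95% interval 3.23 to 6.04, adjusted p = 0.000361 by limma). In transgenic mice it rose by 2.94 ± 0.71 (n = 4 and 3), 7.68-fold (1.42 to 4.46, adjusted p = 0.0187). With slide as a block the differences were 5.4 and 3.53, and within slides 1 and 3 they were 5.5 and 5 in wild type and 5.12 and 2.3 in transgenic mice. With normexp background correction, which adds an offset of 50 that weighs most on dim signals, they were 1.29 and 1 and stayed called. The wild type call was kept without each array in turn (4.33 to 5.15). The transgenic call was lost without TG saline replicate 2 (1.95, adjusted p = 0.0781), TG saline replicate 3 (3.09, 0.0549) or TG cerulein replicate 14 (2.87, 0.0524) in limma's test, and when only the TG arrays were fitted (adjusted p = 0.0557).

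Bhlhe40, also called Dec1, encodes a basic helix-loop-helix repressor that competes for E-boxes and is induced by many stimuli. WT saline arrays read -1.51, -1.9, -1.94 and -1.68, and WT cerulein arrays -0.1, -0.02, -0.29 and -0.78. TG saline arrays read -1.5, -1.78 and -1.72, and TG cerulein arrays 0, -0.14, -0.16 and 0.14. The groups did not overlap in either genotype, and the SD within groups was 0.14 to 0.34. Bhlhe40 rose by 1.46 ± 0.2 in wild type mice (2.75-fold, adjusted p = 0.000258, limma) and by 1.63 ± 0.22 in transgenic mice (3.09-fold, adjusted p = 0.00029). Both calls were kept without each array in turn and with slide as a block (1.5 and 1.63). Within slides 1 and 3 the differences were 1.41 and 1.82 in wild type and 1.43 and 1.59 in transgenic mice. With normexp they were 0.79 and 0.99 and stayed called.

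Its paralogue Bhlhe41 (Dec2) did not pass the test. WT saline arrays ranged from -3.18 to -2.06 and WT cerulein arrays from -2.97 to -2.14, a difference of 0.09 ± 0.37 (95% interval -0.7 to 0.88). TG saline arrays ranged from -3.24 to -2.59 and TG cerulein arrays from -4.11 to -2.4, a difference of -0.21 ± 0.4 (-1.06 to 0.65). The groups overlapped in both genotypes. The differences were -0.12 and -0.47 with slide as a block, and within slides 1 and 3 they were -0.49 and -0.03 in wild type and 0.13 and -0.99 in transgenic mice. With normexp the wild type difference was -0.3.

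Cry1 encodes a cryptochrome that binds and blocks CLOCK-BMAL1 directly. WT saline arrays read -3.08, -2.44, -4.47 and -2.74, and WT cerulein arrays -0.99, -1.01, -1.47 and -2.43. TG saline arrays read -2.27, -3.01 and -2.13, and TG cerulein arrays -0.99, -0.7, 0.06 and -1.08. No groups of a genotype overlapped, although WT cerulein replicate 12 lay only just above WT saline replicate 6. The probe was not well above background on 1 WT saline array.

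Cry1 rose by 1.71 ± 0.44 in wild type mice (3.27-fold, adjusted p = 0.0192, limma) and by 1.79 ± 0.48 in transgenic mice (3.46-fold, adjusted p = 0.0307). With slide as a block the differences were 2.13 and 2.02, and within slides 1 and 3 they were 2.09 and 2.21 in wild type and 1.42 and 2.63 in transgenic mice. The wild type call was lost without WT saline replicate 7 (1.28) or WT cerulein replicate 9 (1.54), when only the WT arrays were fitted (1.71, adjusted p = 0.0545 by limma), with normexp (0.45) and with scaling to the array median (1.52). The transgenic call was lost without TG saline replicate 2 (1.89), 3 (1.52) or 4 (1.96), without TG cerulein replicate 14 (1.8) or 15 (1.55), and with scaling to the array median (1.76).

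The 3 Per genes encode the PER proteins, which form the repressor complex with cryptochromes, and Per1 and Per2 are also immediate targets of cAMP and glucocorticoid signals. Per1 read 2.8 to 3.52 on WT saline, 3.18 to 4.59 on WT cerulein, 2.84 to 3.49 on TG saline and 2.67 to 4.16 on TG cerulein arrays. Its groups overlapped, and it differed by 0.37 ± 0.35 in wild type mice (95% interval -0.37 to 1.12) and 0.13 ± 0.38 in transgenic mice (-0.68 to 0.93). With slide as a block, where 21.5% of all genes were called, the wild type difference of Per1 was 0.91 and passed the test (adjusted p = 0.0394, limma). Within slides 1 and 3 it was 0.52 and 1.19. The transgenic difference was 0.48 with the block (adjusted p = 0.249, limma) and 0.85 and 0.01 within slides 1 and 3.

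Per2 read -3.63 to -2.13 on WT saline, -3.7 to -1.07 on WT cerulein, -2.8 to -1.79 on TG saline and -2.56 to -1.84 on TG cerulein arrays. It differed by 0.37 ± 0.49 (95% interval -0.68 to 1.42) in wild type and 0.13 ± 0.53 (-1 to 1.27) in transgenic mice. The Per2 differences were 1.16 (adjusted p = 0.0696, limma) and 0.64 with slide as a block, and with normexp both were -0.19. Within slides 1 and 3 they were 1.21 and 1.68 in wild type and 0.49 and 0.29 in transgenic mice.

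Per3 was well above background on 2 of 4 WT saline, 1 of 3 TG saline, 4 of 4 WT cerulein and 1 of 4 TG cerulein arrays. Its WT cerulein arrays (-3.76 to -2.39) lay just above its WT saline arrays (-5.72 to -3.79), but the difference of 1.34 ± 0.76 did not pass the test (95% interval -0.28 to 2.96, adjusted p = 0.242, limma), with slide as a block it was 0.19, with normexp -0.15, and within slides 1 and 3 it was 0.1 and 1.24. In transgenic mice the Per3 groups overlapped and differed by -0.05 ± 0.82 (-1.8 to 1.7), by -0.71 with slide as a block and by -0.18 and -2.13 within slides 1 and 3.

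Nr1d1 encodes REV-ERB alpha, a heme-binding repressor of Arntl. WT saline arrays read -1.73, -1.07, -1.52 and -1.43, and WT cerulein arrays -3.96, -2.35, -2.72 and -3.28. TG saline arrays read -1.38, -1.44 and -1.41, and TG cerulein arrays -1.69, -3.73, -3.41 and -4.18. All cerulein arrays lay below all saline arrays of their genotype, and TG cerulein replicate 13 lay close to the saline range.

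Nr1d1 fell by 1.64 ± 0.45 in wild type mice (3.12-fold, adjusted p = 0.0258, limma) and by 1.85 ± 0.48 in transgenic mice (3.59-fold, adjusted p = 0.029). With slide as a block the differences were -1.36 (adjusted p = 0.101 by limma, no longer called) and -1.67 (0.0425). Within slides 1 and 3 they were -2.23 and -1.01 in wild type and -1.33 and -1.99 in transgenic mice. The wild type call was also lost without WT saline replicates 6 (-1.52), 7 (-1.67) or 8 (-1.64), or WT cerulein replicates 9 (-1.35) or 12 (-1.57). The transgenic call was lost without TG saline replicates 2 (-1.83), 3 (-1.86) or 4 (-1.85), or TG cerulein replicates 14 (-1.69), 15 (-1.79) or 16 (-1.54), and when only the TG arrays were fitted. Both were lost without slide 2 (-1.72 and -1.54), and the transgenic call with scaling to the array median (-1.88). With normexp the differences were -0.94 and -0.97 and stayed called. No array left out turned the direction.

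Nr1d2 (REV-ERB beta) did not pass the test. WT saline arrays ranged from -0.89 to 0.15 and WT cerulein arrays from -0.73 to 0.57 (difference 0.15 ± 0.38, 95% interval -0.66 to 0.97). TG saline arrays ranged from -0.62 to 0.03 and TG cerulein arrays from -1.47 to 0.47 (-0.36 ± 0.41, -1.24 to 0.52). The differences were 0.53 and -0.09 with slide as a block, and within slides 1 and 3 they were 0.16 and 0.59 in wild type and 0.48 and -0.63 in transgenic mice.

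Dbp was read by 2 probes. On the brighter one WT saline arrays read 1.64, 2.53, 2.29 and 2.02, and WT cerulein arrays 1.52, 0.81, 1.16 and 0.44. TG saline arrays read 0.9, 1.81 and 2.03, and TG cerulein arrays 1.23, 1.27, 1.24 and 0.54. The wild type groups did not overlap and the transgenic groups did. Dbp fell by 1.14 ± 0.31 in wild type mice (2.2-fold, adjusted p = 0.0246, limma), and in transgenic mice the difference was -0.51 ± 0.33 (95% interval -1.22 to 0.2, adjusted p = 0.412).

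The difference between the genotypes' Dbp responses was 0.63 ± 0.45 (95% interval -0.34 to 1.6) and did not pass the test. The second probe gave -0.98 ± 0.36 in wild type (adjusted p = 0.112 over 42181 probes, limma) and -0.61 ± 0.44 in transgenic mice, where 1 TG saline spot was dropped for an outlier flag. The wild type call was lost with slide as a block (-0.8, adjusted p = 0.093, limma), and within slides 1 and 3 the difference was -0.12 and -1.47. It was also lost without WT saline replicates 6 (-1), 7 (-1.08) or 8 (-1.17), without WT cerulein replicate 12 (-0.96), without slide 2 (-0.95) and with normexp (-0.86). In the authors' deposited table, where the gene is read from the second probe, the difference was -0.87 in wild type mice and not called. The same table gave -2.29 in transgenic mice, 1.56 between the genotypes after saline and -1.43 for the difference between the responses, none called, and these values include the spot dropped here. With array weights the transgenic difference was -0.64 and was called (adjusted p = 0.0354, limma). That setting called 7714 of all 17338 genes in transgenic mice, against 1421 in the fit reported here.

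**Figure D3:**
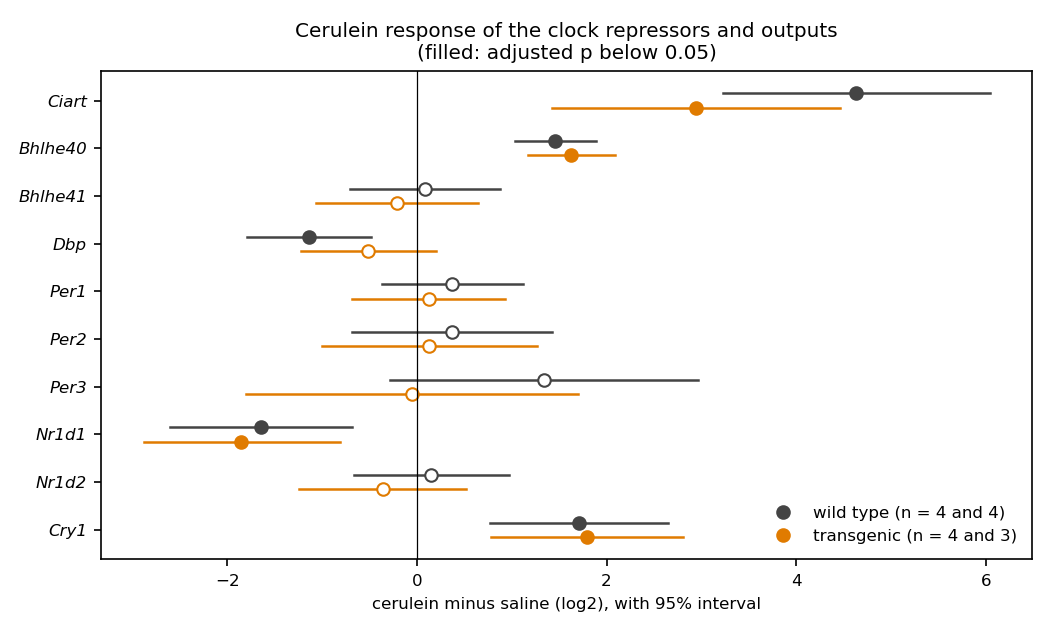
Cerulein minus saline difference (log2, x axis) of each of the 10 genes in wild type (n = 4 and 4) and transgenic (n = 4 and 3) mice, with 95% intervals; filled points have an adjusted p below 0.05. Ciart, Bhlhe40 and Cry1 lie above 0 and Nr1d1 below 0 in both genotypes, and Dbp below 0 with a filled point in wild type mice.

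**Figure D4:**
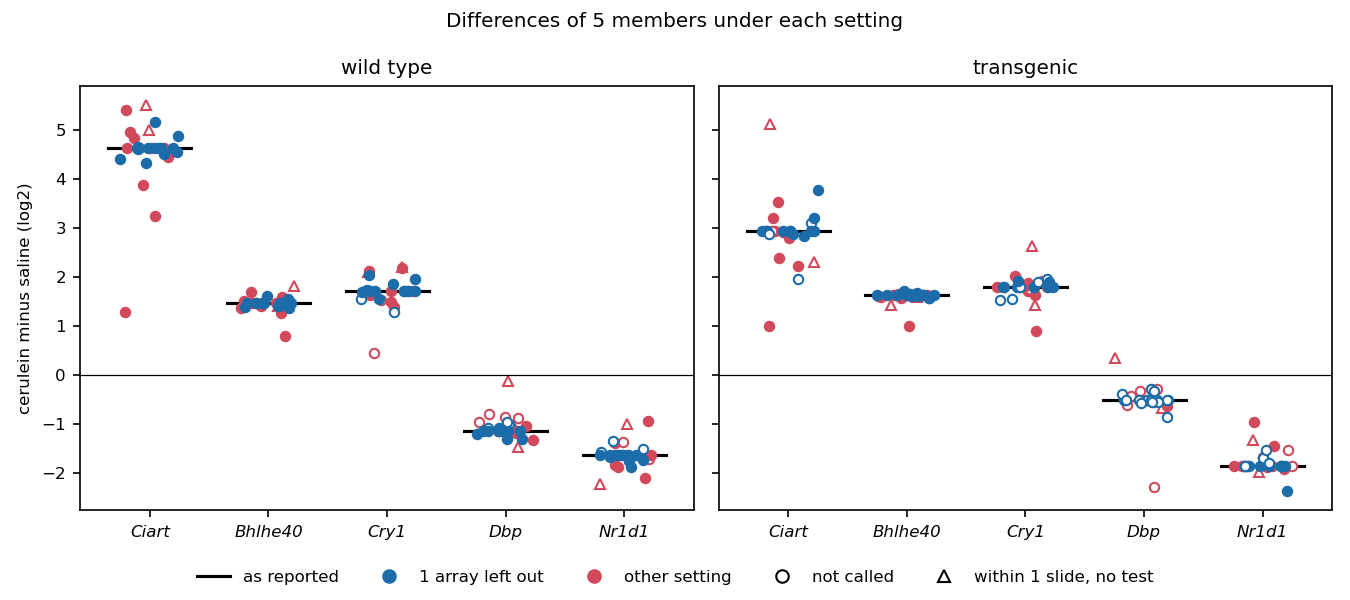
Cerulein minus saline difference (log2) of Ciart, Bhlhe40, Cry1, Nr1d1 and Dbp under each alternative setting, in both genotypes; blue points leave out 1 array, red points are other settings, triangles are within 1 slide with no test, open symbols are not called and the line is the value as reported. Bhlhe40 stays filled without each array in turn, whereas Nr1d1 and Dbp have many open points.

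The genotype comparisons asked whether the transgene shifted these genes. After saline 0 of the 10 were called, against 0.075% of all genes, and after cerulein 0 of the 10, against 0.144%. At an unadjusted p below 0.05 in limma's test the counts were 0 of the 10 against 3.21% of all genes after saline and 0 of the 10 against 7.05% after cerulein. The genotypes overlapped for all 10 after either treatment, while 6.63% of all genes after saline and 2.51% after cerulein did not overlap. The difference between the genotypes' responses was called for 0 of 17338 genes, that is 0%, with 134 genes (0.773%) at an unadjusted p below 0.05 in limma's test and 0 of the 10 among them. That difference was called for 1 gene, not a member, with slide as a block.

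The genotype differences ranged from -0.54 (Dbp) to 1.4 (Ciart) after saline and from -1.49 (Per3) to 0.8 (Cry1) after cerulein. For Ciart the TG minus WT difference was 1.4 ± 0.71 after saline (95% interval -0.12 to 2.92) and -0.29 ± 0.66 after cerulein (-1.7 to 1.12). Its response differed by -1.69 ± 0.97 between the genotypes (-3.76 to 0.38), an interval that includes 0. For Bhlhe40 the responses differed by 0.17 ± 0.29 (-0.46 to 0.8), for Cry1 by 0.08 ± 0.65 (-1.3 to 1.47) and for Nr1d1 by -0.2 ± 0.66 (-1.61 to 1.21). Per3 had a difference of -1.39 ± 1.12 (-3.78 to 1). None of these comparisons called a member with slide as a block (0 of the 10 in each), and the Ciart values were 1.51 after saline, -0.36 after cerulein and -1.86 for the response. Within slides 1 and 3 the Ciart difference was 0.34 and 2.08 after saline and -0.04 and -0.62 after cerulein, and the Per3 difference after cerulein was -1.34 and -3.12. Per3 was well above background on 4 of 4 WT cerulein but only 1 of 4 TG cerulein arrays, replicate 16 on slide 2. The TG cerulein arrays on slides 1 and 3 thus did not clear the background threshold for Per3.

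The other clock genes reported here, 27 in 4 lists also chosen with earlier results known, were all tested. In wild type mice 6 rose and 2 fell, with a median difference of 0.04, and in transgenic mice 5 rose and 1 fell, with a median of 0.17, against -0.06 for all genes in both. Over all genes 5.64% were called higher and 8.35% lower in wild type, and 4.78% and 3.41% in transgenic mice. None of the 27 passed the test between the genotypes. Wee1 after saline (TG minus WT 0.89 ± 0.34) had an unadjusted p below 0.05 in limma's test, as did 3.21% of all genes. After cerulein Arntl (0.91 ± 0.35) and Btrc (1.04 ± 0.35) did, as did 7.05% of all genes. The other Btrc probe gave -0.08. Among 6 clock activators (Clock, Npas2, Arntl, Arntl2, Rora, Rorb) 0 were called in either genotype. Arntl, which encodes BMAL1, differed by -0.48 ± 0.35 in wild type and 0.45 ± 0.37 in transgenic mice. With slide as a block Clock (0.9 in wild type and 0.92 in transgenic mice) and Rora (0.93 and 0.8) were called. That setting called 21.5% of all genes in wild type and 23.6% in transgenic mice.

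Of the 8 other repressors and outputs (Cry2, Nfil3, Tef, Hlf, Noct, Usp2, Nampt, Wee1) 3 rose in wild type and 2 in transgenic mice, and 0 fell, against 14% and 8.2% of all genes called in either direction. Nfil3, the bZIP repressor that opposes Dbp at D-boxes, read 0.8 to 1.85 on WT saline, 4.56 to 6.34 on WT cerulein, 0.54 to 1.32 on TG saline and 5.28 to 5.91 on TG cerulein arrays. It rose by 4.37 ± 0.35 (20.6-fold, adjusted p = 2.32e-06, limma) in wild type and by 4.69 ± 0.37 (25.8-fold, 4.07e-06) in transgenic mice. Noct, which encodes the rhythmic phosphatase nocturnin, rose by 3.7 ± 0.35 (13-fold) and 3.81 ± 0.37 (14-fold). Wee1, a clock-controlled kinase that delays entry into mitosis, rose by 1.61 ± 0.31 in wild type mice and differed by 0.73 ± 0.34 in transgenic mice (adjusted p = 0.228, limma). With slide as a block its adjusted p in transgenic mice was 0.0279 by limma, where 23.6% of all genes were called. The Wee1 response differed between the genotypes by -0.89 ± 0.46, which did not pass the test (adjusted p = 1). Its TG minus WT difference was 0.89 after saline and 0.01 after cerulein.

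Of 7 modifiers of clock proteins (Csnk1d, Csnk1e, Fbxl21, Btrc, Fbxw11, Gsk3b, Timeless) 2 rose in both genotypes and 1 fell in wild type mice, against 14% and 8.2% of all genes called. These counts read each gene from its brightest probe, and probes of a gene disagreed for Csnk1d, Gsk3b and Btrc. A dimmer probe of the kinase gene Csnk1d differed by 1.08 in wild type (adjusted p = 0.0214 over 42181 probes, limma) and 1.19 in transgenic mice (0.0257), where its brightest probe gave -0.18 and 0.08. A dimmer probe of Gsk3b, which also encodes a kinase, differed by -1.65 (0.0014 by limma) and -1.48 (0.00671), while its other probes gave -0.76 and -0.02 in wild type and -0.65 and 0.23 in transgenic mice and were not called. Csnk1e, a kinase that phosphorylates PER proteins, rose by 0.99 ± 0.22 and 1.14 ± 0.24, and neither call held with scaling to the array median (0.79 and 1.11). Fbxw11 and Btrc encode the paired beta-TrCP subunits of the ligase that marks PER proteins for degradation. Fbxw11 rose by 1.95 ± 0.33 (3.85-fold) in wild type and 2.13 ± 0.35 (4.38-fold) in transgenic mice. Btrc fell by 1.61 ± 0.35 in wild type mice, and differed by -1.24 ± 0.38 in transgenic mice (adjusted p = 0.0553, limma), where it was called without WT cerulein replicate 12 (-1.24), TG cerulein replicate 13 (-1.41) or TG cerulein replicate 15 (-1.42). The other Btrc probe gave 0.73 and 0.41 and was not called, so the Btrc probes disagree in sign. With the mean of its probes the wild type Btrc difference was -0.44 and no longer called (adjusted p = 0.233, limma).

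Of the 6 inputs to Per1 transcription (Creb1, Crem, Sik1, Crtc1, Crtc2, Nr3c1) 1 rose and 1 fell in both genotypes, against 5.64% higher and 8.35% lower over all genes in wild type and 4.78% and 3.41% in transgenic mice. Crem, whose short ICER products repress cAMP-driven genes, rose by 3.37 ± 0.37 (10.4-fold) and 3.49 ± 0.4 (11.3-fold), and its other probes gave 2.44 and 0.81 in wild type and 2.91 and 0.59 in transgenic mice. Nr3c1, the glucocorticoid receptor, fell by 1.29 ± 0.27 and 1.05 ± 0.29, while its other probe gave -0.13 and -0.03. The wild type Nr3c1 call was lost without slide 2 (-0.88) and with the mean of its probes (-0.71). The transgenic Nr3c1 call was lost without WT saline replicate 6, 7 or 8 (-1.05 each), TG saline replicate 3 (-0.98) or 4 (-0.93), or TG cerulein replicate 13 (-0.98), 14 (-0.97) or 16 (-1.04). It was also lost with scaling to the array median (-1.08), with no filter on dim probes (-1.05), with the mean of its probes (-0.54) and with only the TG arrays fitted (-1.05).

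**Figure D5:**
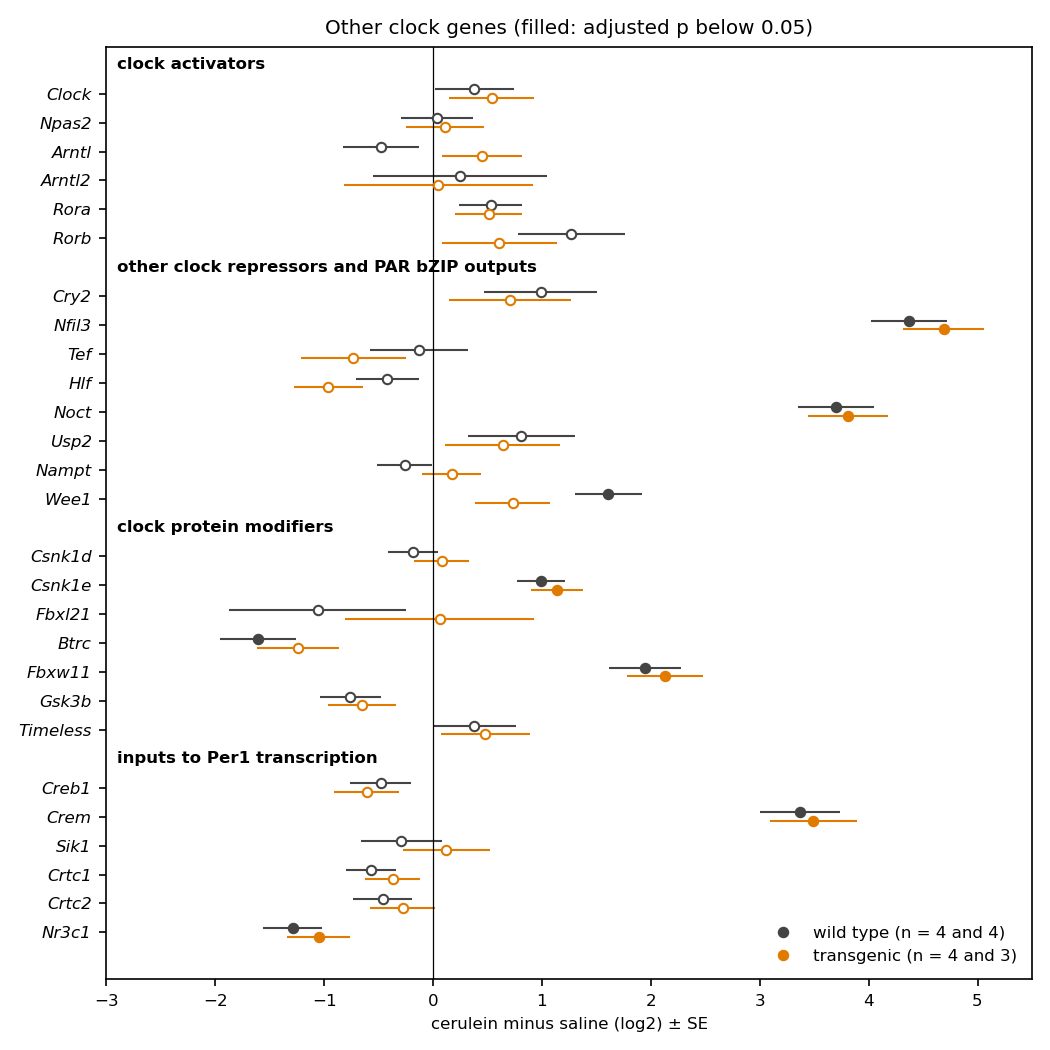
Cerulein minus saline difference (log2 ± SE, x axis) of the 27 other clock genes by list, in wild type and transgenic mice; filled points have an adjusted p below 0.05. Nfil3, Noct and Crem lie farthest to the right, and none of the 6 clock activators has a filled point.

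Likeness was ranked among genes with a value on every array, leaving out provisional symbols of the Rik, Gm and LOC kinds. Over the 15 arrays, the ranked genes whose levels ran closest to those of Ciart were Zfp568 (Pearson r = 0.941), Itga6 (0.937), Chac1 (0.935), Trib3 (0.934) and Cdca4 (0.932). Those closest to Dbp were Tmem126b (0.896), Hey1 (0.894), Adamts8 (0.892), Rprd1b (0.888) and Prkra (0.88). These correlations describe arrays that share treatment and slide and were not tested. All 5 genes near Ciart rose with cerulein in both genotypes. Of the 5 near Dbp, Hey1 (-0.74) and Prkra (-0.81) fell in wild type mice and none was called in transgenic mice. The genes were picked on these same arrays, so their changes with cerulein follow in part from the choice.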

How the data were processed

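RNA from 15 pancreata was measured on 1-colour Agilent arrays (Cy3). The deposited scanner files hold spot intensity, which the authors' run of Feature Extraction, version 10.7.3.1 per the file headers, corrected for background within each array, and flag columns (other values, 0 or 1), also deposited. The deposited series table holds log2 values whose normalization between arrays is not given in the sources used here, and it was used as an alternative.

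Spots flagged as outliers (105 to 188 per array) were dropped, and spots of a probe were averaged on the log2 scale. Each array's 75th percentile was subtracted from its log2 processed signals. Probes well above background on at least 3 arrays were kept (42181), and a gene was read from its brightest kept probe. No probe was saturated. RefSeq accessions named 27235 probes. The number of arrays limits the precision. The 4 group means of all 15 arrays were fitted with limma 3.58.1 in R 4.3.3 (lmFit and eBayes, two-sided, no covariate), and p-values were adjusted by Benjamini-Hochberg within each of 5 comparisons. The code was tested on simulated data. Normexp correction used the median spot signal in place of the planned mean, with an offset of 50, and array weights used limma's gene-by-gene method.

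Named genes are all 10 members, the called genes of 4 clock lists, and the 5 ranked genes with the highest correlation with Ciart and with Dbp. That ranking left out genes with a missing value or a provisional symbol. Other genes were named after their values were seen. The members and lists were chosen with earlier results of these data known. Results for 2 genes of the clock lists are not reported here. Alternatives were other background corrections, scalings, filters, probe rules, slide terms and array weights, the deposited table, and leaving out each array. The cell type lists cover acinar, duct, islet, neutrophil, macrophage, lymphocyte, adipocyte, fibroblast and endothelial markers.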

Additional observations from a re-analysis of the deposited data

Results flagged for a closer look

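Among 30 sets of 4 arrays of a member and group, 2 had an array far from the others by Dixon's test at its 95% critical value, where chance flags about 1 in 20. Ciart on TG cerulein replicate 16 read -1.82, against -0.85 to -0.71 on the other TG cerulein arrays, a gap of 0.873 of the range. Dbp on the same array read 0.54, against 1.23 to 1.27, a gap of 0.947 of the range. Replicate 16 is the only TG cerulein array on slide 2 and has the highest 75th percentile of signal of all arrays (529). The part of the slide in these values was not tested.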

How the results depend on the processing

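The wild type count of 5 called members was 3 with normexp, 3 without slide 2, 3 of 6 with probes well above background on all arrays, and 2 to 5 without each array in turn. With slide as a block 4 members were called higher and 0 lower in wild type mice, with Per1 called and Dbp and Nr1d1 not. The transgenic count of 4 was 2 with scaling to the array median, 2 of 6 with probes well above background on all arrays, 2 with only the arrays compared, and 1 to 4 without each array. The stricter filter leaves out Ciart, Cry1, Per2 and Per3; otherwise the cause was not tested. No genotype comparison or difference between responses gave a called member under these settings, and no called member changed direction in those run. Over all genes, 2425 (wild type) and 1421 (transgenic) were called, against 3735 and 4084 with slide as a block, 7096 and 7714 with array weights, 1179 and 558 with the array median, and 2196 in transgenic mice with quantile normalization. In wild type mice 1559 were called without slide 2 and 1521 with only the arrays compared. Without 1 array the counts ranged from 1378 (without WT saline replicate 6) to 4454 (without WT cerulein replicate 10) in wild type and from 699 (without TG saline replicate 3) to 1831 in transgenic mice. Genes called higher were 40.3% of wild type and 58.3% of transgenic calls. They were 29.1% and 50.1% with normexp and 37.2% and 69% with the array median. With slide as a block they were 63.9% and 64.6%, and without slide 2 they were 71% and 64.9%. Without 1 array the wild type share ranged from 28.3% (WT cerulein replicate 10) to 55.1% (WT cerulein replicate 12). It was 52.5% without WT saline replicate 6, which lies on slide 3. The wild type balance thus differed between settings, and the part of the slide in it was not tested. The median of all genes was -0.23 and -0.2 with normexp and -0.25 and -0.09 with the array median, against -0.06. Settings for the other clock genes were chosen after seeing the data. No paired analysis was possible because the groups share no replicate numbers. Signal near background limits Ciart on saline arrays, and Per3 on saline and TG cerulein arrays.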

Other observations

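The second Dbp probe had a spot flagged as an outlier on TG saline replicate 2, and that spot was left out of the analysis above. In the authors' deposited table the same probe has a log2 value of 15.08 on that array, against 8.32 to 10.3 on the other 14 arrays.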
